A study of Homo sapiens with 6 samples.

Results

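The genes described here encode enzymes that make, recycle, convert and break down pyrimidine nucleotides, with the kinases, phosphatases and reductase that set the size of the nucleotide pools. They were a fixed list of 32 gene symbols, chosen by function but with earlier results of these data known. All 32 matched 1 Ensembl ID each among the 61487 IDs of the count table. Gene counts came from 6 RNA libraries of K562, an established human leukaemia line that carries the BCR-ABL1 fusion, with 3 libraries of azacitidine-sensitive cells and 3 of azacitidine-resistant cells. The resistant cells were derived from the sensitive line by months of culture in rising azacitidine, and no other genotype or treatment separates the groups in the labels. Both populations grew in RPMI medium with FBS, penicillin and streptomycin. The names of all 6 libraries end in NT, whose meaning was not established here. The labels do not otherwise say whether drug was present when RNA was taken. They also do not say whether the resistant cells were 1 clone, or how the biological replicates were kept apart. The p-values therefore measure the spread between these libraries, which may be technical.

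Cells build UMP from small precursors in the de novo pathway, convert it to UTP and then to CTP, and reduce ribonucleoside diphosphates to deoxyribonucleotides for DNA. Salvage enzymes return free nucleosides and bases to the pools, while nucleotidases, phosphorylases and dihydropyrimidine dehydrogenase work in the opposite direction. Azacitidine is a cytidine analogue that enters the same routes: uridine-cytidine kinase adds its first phosphate, it competes with CTP, and ribonucleotide reductase converts part of it to the deoxy form that traps DNA methyltransferases.

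Total counts were between 33007642 and 43006918 per library, so that 3 counts, the floor used for absence, equalled 0.0733 to 0.0902 CPM (counts scaled to a common library total). Mitochondrial ribosomal RNA took 12.8% to 16.2% of counts in sensitive libraries and 8.54% to 17.8% in resistant ones, with the lowest share in resistant replicate 3. Of 16 genes used to check K562 identity, 15 passed the filter on low counts. BCR (0.79, edgeR adjusted p = 0.0181) and ABL1 (0.71, 0.0265) were higher in resistant cells on the log2 scale, LMO2 was lower (−0.94, 0.00583), and the other 12, among them the erythroid regulator GATA1 (−0.43, 0.0664), did not pass. The labels call the cells myeloblasts, but of 8 myeloblast markers MPO, ELANE, CD34 and CTSG had between 0 and 4 counts in every library. CD33 was the most abundant of these 8 markers in every library, and their summed level was 109 to 116 CPM in sensitive and 13.3 to 14.5 CPM in resistant libraries. Lymphoid markers summed to 24.9 to 104 and 10.0 to 11.7 CPM, with MS4A1 and CD8A at 0 counts, and stromal and epithelial markers to 115 to 134 and 97.7 to 127 CPM, most of it from EPCAM. The part of these markers in the results was not tested.

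The resistant cells had a larger share of CTPS1 and CAD RNA, and a smaller share of NT5M, UPP2, CMPK2, NME3, TK2, DCTD, RRM2B, TK1 and UPRT. CTPS1 makes CTP and CAD starts UMP synthesis, while the 9 lower genes are spread over nucleotidases, nucleotide kinases (CMPK2 and NME3), thymidine kinases, deaminase, reductase and salvage. All 32 members passed the filter on low counts, UPP2 only through the sensitive libraries, so that its call follows in part from the filter. With edgeR's quasi-likelihood test and Benjamini-Hochberg adjustment over the 20891 genes tested, 2 members were higher and 9 lower at an adjusted p below 0.05, and 21 did not pass. In bulk RNA, fewer cells that express a gene and less RNA per cell cannot be told apart. Across all genes tested, 9.83% were called higher and 13.1% lower, 23.0% in all, against 6.25%, 28.1% and 34.4% of the members. Because the list was chosen with earlier results of these data known, these shares are a description only. The same holds for the counts by role below, which cover 1 to 6 genes each. The groups did not overlap for 13 of the 32 members (40.6%), close to the 40.1% of all genes tested, so separation of the groups as such was no more frequent here than elsewhere. The median log2 fold change of the members was −0.24, against 0.03 for all genes tested, and their median size of change was 0.42 against 0.48.

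**Figure D1:**
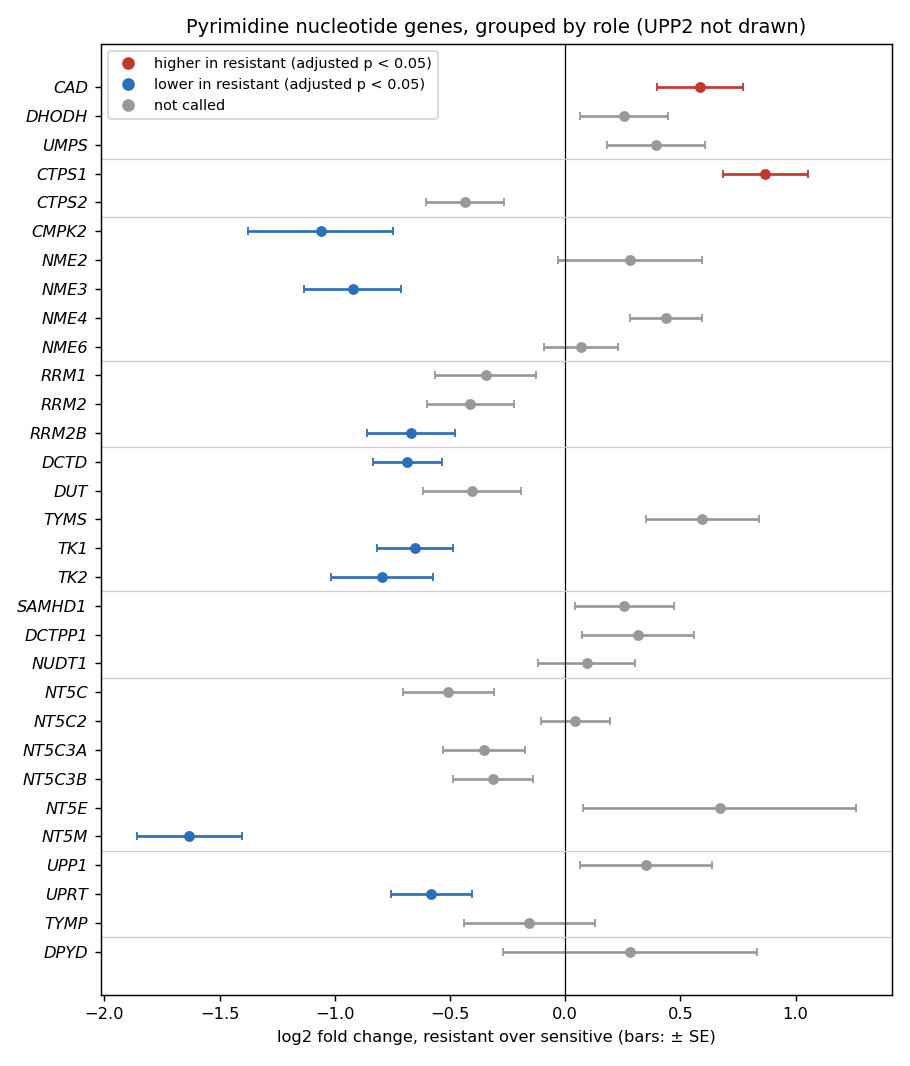
Log2 fold change (x axis, resistant over sensitive, with its SE as a bar) of 31 members in order of their role, with lines between roles and colour for the call. CTPS1 and CAD lie to the right of 0 and NT5M lies farthest to the left at −1.63, while UPP2 is left out because it had only 2 counts in resistant cells.

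How many members passed depended on the libraries and on the scaling. Scaling by library totals alone shifted the median of all genes from 0.03 to 0.20, and then 5 members were higher and 4 lower. Over all genes the share of calls that were higher went from 42.8% to 58.9% with that scaling. Relative to that median the members stood at −0.27 in place of −0.26. With the replicate number as a block, 4 were higher and 12 lower, where 30.8% of all genes were called. Leaving out single libraries gave 1 higher and 5 lower without sensitive replicate 1, 1 and 4 without sensitive replicate 2, 2 and 5 without sensitive replicate 3, 1 and 4 without resistant replicate 1, 1 and 3 without resistant replicate 2, and 3 and 13 without resistant replicate 3. The share of all genes called moved too, from 12.6% without resistant replicate 2 to 31.3% without resistant replicate 3. Without both libraries numbered 3, an alternative chosen with results known, 6 were higher and 15 lower, where 44.1% of all genes were called. CTPS1 and NT5M passed in the same direction in all 17 alternatives. DCTD lost its call in 1 of them, without resistant replicate 2 (adjusted p = 0.0514), and NME3 in 1, without sensitive replicate 2 (0.0545).

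**Figure D2:**
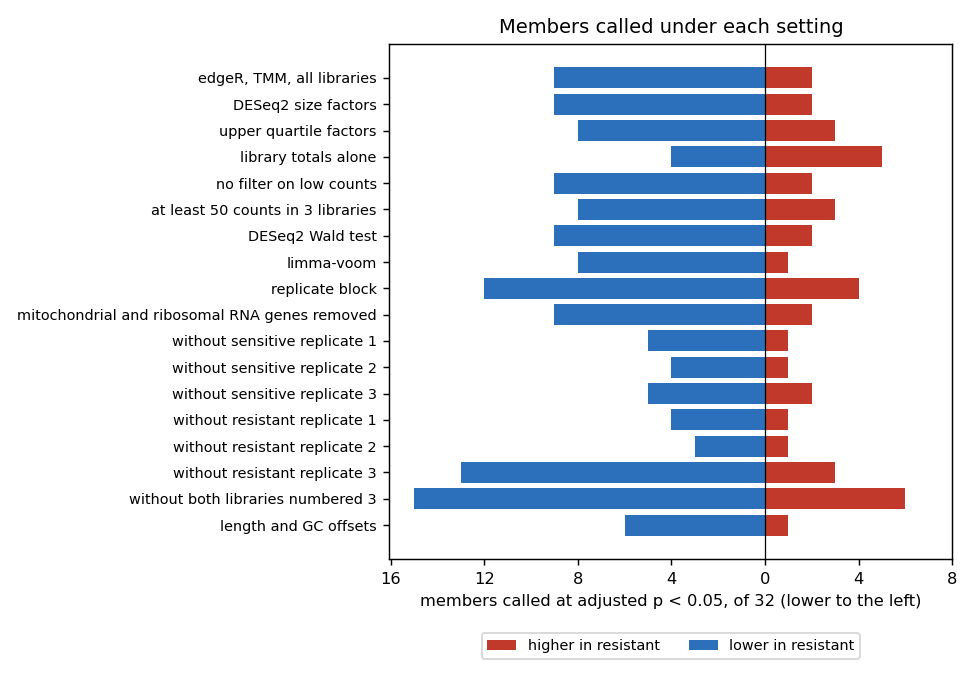
Number of the 32 members called lower (left, blue) and higher (right, red) at an adjusted p below 0.05 under each setting on the y axis. The bars run from 3 lower and 1 higher without resistant replicate 2 to 15 lower and 6 higher without both libraries numbered 3.

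Resistant replicate 3 lay nearest to the sensitive mean for 19 of 32 members, against 7 for resistant replicate 1 and 6 for resistant replicate 2. The same count was not made over all genes, so whether this is particular to the members was not tested. The median of the members relative to the sensitive mean, on log2(CPM + 1), was −0.31, −0.12 and −0.04 in resistant replicates 1, 2 and 3. In the sensitive libraries it was −0.12, −0.01 and 0.14. Over all genes tested the medians were 0.02, 0.00 and −0.03 in the resistant libraries and 0.00, 0.00 and −0.02 in the sensitive ones. Over the 9 lower members the same medians were −0.84, −0.62 and −0.61 in the resistant libraries, a description only, since these genes were chosen for being lower there.

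**Figure D3:**
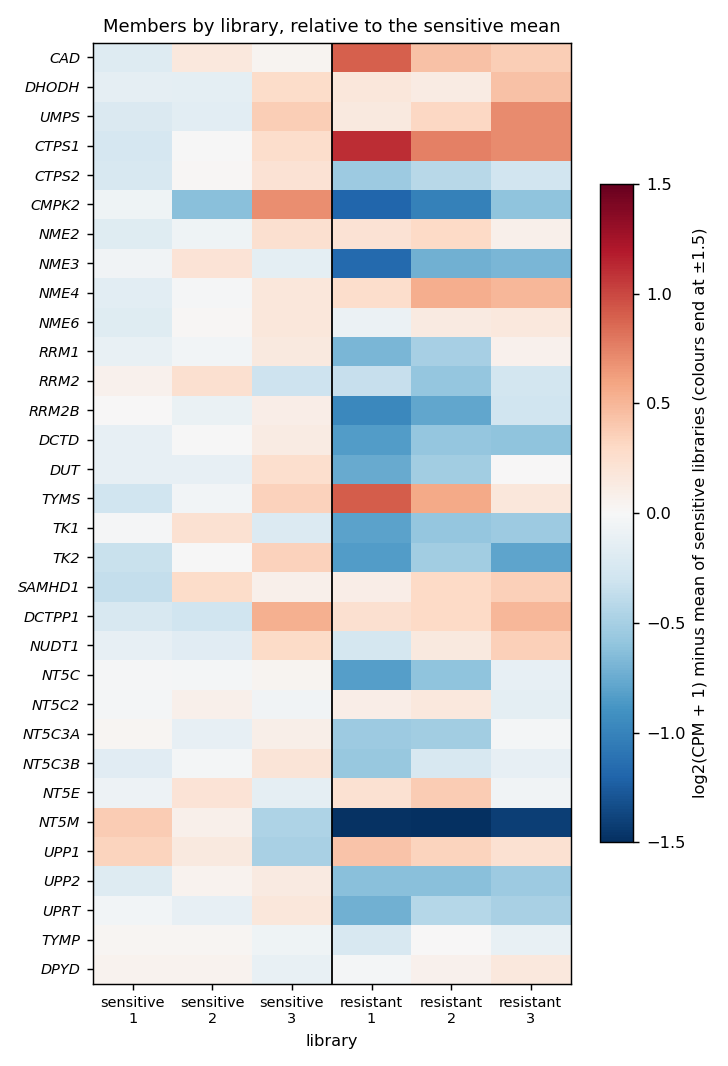
Log2(CPM + 1) of each member (rows, by role) in each library (columns) minus the mean of the 3 sensitive libraries, with red above and blue below that mean and colours ending at ±1.5. NT5M is deep blue in all 3 resistant libraries, and RRM1, DUT, NT5C and NT5C3A are pale in resistant replicate 3 and bluer in replicates 1 and 2.

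Because azacitidine acts on cytosine methylation, which in human DNA sits mostly at CpG pairs, the CpG content before the start of the members was read from RefSeq promoter sequences on GRCh38.p14. A sequence was found for 31 of 32 members, taking the most upstream listed start of each gene, and 16 of the 31 had several starts. In the 250 bases before the start the members had a median of 22 CpG pairs, counted as the letters CG, against 10 over 27305 genes, and 27 of 31 lay above that general median. The 8 lower members with a sequence had a median of 13.5, with a range from 2 to 30, the 2 higher members had 24 (CTPS1) and 19 (CAD), and the 21 not called had 22. Of the 8 lower members with a sequence, 5 had several starts. Among them CMPK2 had 3 and DCTD and UPP2 had 2 each, while NT5M had 1. Which start these cells use was not tested, so each CpG count holds for the most upstream start only. Methylation was not measured here. The 4 sequences below are from lower genes, the CpG-rich NT5M and DCTD (30 and 23 pairs in the full window) and the CpG-poor CMPK2 and UPP2, the lowest of these genes, while NME3, with 28 pairs, is not shown. They were chosen after their values were seen and are printed with CpG pairs in capitals, 5′ to 3′ on the strand of the gene and without bases inside an annotated exon of that gene.
NT5M, chr17:17303123-17303334, plus strand, 22 CpG pairs in the 212 bases shown: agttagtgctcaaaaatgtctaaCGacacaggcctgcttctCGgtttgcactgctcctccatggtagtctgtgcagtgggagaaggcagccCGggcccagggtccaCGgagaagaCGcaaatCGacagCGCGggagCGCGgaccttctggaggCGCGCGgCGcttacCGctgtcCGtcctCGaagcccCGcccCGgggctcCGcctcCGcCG
DCTD, chr4:182917612-182917861, minus strand, 23 CpG pairs: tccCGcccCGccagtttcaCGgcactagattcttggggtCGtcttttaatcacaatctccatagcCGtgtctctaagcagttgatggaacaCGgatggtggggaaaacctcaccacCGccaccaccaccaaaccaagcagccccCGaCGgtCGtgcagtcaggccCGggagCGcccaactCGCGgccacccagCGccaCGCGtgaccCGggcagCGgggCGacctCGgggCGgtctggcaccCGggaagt
CMPK2, chr2:6866636-6866885, minus strand, 2 CpG pairs: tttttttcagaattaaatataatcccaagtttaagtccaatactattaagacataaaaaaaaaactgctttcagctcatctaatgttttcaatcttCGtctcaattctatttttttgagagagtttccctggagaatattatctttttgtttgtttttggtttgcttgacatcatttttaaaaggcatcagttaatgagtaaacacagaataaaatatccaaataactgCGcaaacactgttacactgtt
UPP2, chr2:157994929-157995178, plus strand, 3 CpG pairs: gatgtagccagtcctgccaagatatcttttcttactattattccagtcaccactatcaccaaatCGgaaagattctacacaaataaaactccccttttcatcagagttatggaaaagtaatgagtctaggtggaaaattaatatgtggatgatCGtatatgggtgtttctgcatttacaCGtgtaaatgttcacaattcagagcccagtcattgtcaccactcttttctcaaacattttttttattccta
The NT5M and CMPK2 stretches lie directly before the GENCODE gene, while those of DCTD and UPP2 lie inside the longer GENCODE gene models, outside their exons. The full 250-base window of NT5M held 30 CpG pairs, more than 87.9% of all genes, and that of CMPK2 fewer than most, with 15.3% of genes below it.

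Per kilobase of exon, the most abundant members in both groups were RRM1, TK1 and RRM2, in that order by mean. On the scale of CPM per kilobase of GENCODE 29 exon (RPKM), their levels were 86.9 ± 8.17, 71.0 ± 10.7 and 44.6 ± 8.47 in sensitive cells and 68.4 ± 19.5, 45.1 ± 4.23 and 33.5 ± 3.64 in resistant cells (SD, n = 3). The libraries of RRM1 and TK1 overlapped in sensitive cells and not in resistant cells, and TK1 lay above RRM2 without overlap in both groups. DCTD and DUT followed at 27.5 ± 2.44 and 23.7 ± 3.74 RPKM in sensitive cells with overlapping libraries, and in the reverse order by mean in resistant cells (17.1 ± 1.68 and 17.9 ± 5.05). At the other end were DPYD (0.0353 RPKM), NT5E (0.0693) and UPP2 (0.185) in sensitive cells. NT5M moved from rank 9 to rank 20 of the 32 members, and CTPS1 from rank 23 to rank 17. Exon length here is the union of all annotated exons of a gene, 1961 bases for NT5M and 11517 for CTPS1. The order of the genes therefore depends on the annotation.

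The 3 enzymes of UMP synthesis all had positive log2 fold changes, and 1 passed. CAD, on chromosome 2 (27217390 to 27243943), encodes the protein that carries out the opening steps of the pathway. Its level was 78.7, 100.5 and 92.4 CPM in sensitive replicates 1, 2 and 3 and 168, 123 and 116 CPM in the resistant ones, an order of replicates kept in all such lists. All resistant values lay above all sensitive ones, with resistant replicate 1 highest. CAD rose 1.499-fold (log2 fold change 0.58 ± 0.19 SE, edgeR adjusted p = 0.0471). The call stood close to the threshold and was lost without sensitive replicate 1 (0.203), 2 (0.0963) or 3 (0.0847), without resistant replicate 1 (0.155) or 2 (0.103), with limma-voom (0.0504) and with length and GC offsets (0.214), where its log2 fold change was 0.36. UMPS, which makes UMP from orotate, measured 41.2 ± 9.96 and 54.2 ± 11.6 CPM, with overlapping groups (log2 fold change 0.39, edgeR adjusted p = 0.216). With the replicate block UMPS passed (0.40, adjusted p = 0.0334), as it did with library totals alone (0.58, 0.0456) and without both libraries numbered 3 (0.41, 0.0120). DHODH, the mitochondrial dehydrogenase of the pathway, measured 14.4 ± 2.67 and 17.2 ± 2.23 CPM (adjusted p = 0.376).

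The 2 CTP synthetase genes differed in sign. CTPS1, on chromosome 1 (40979335 to 41012565), encodes the enzyme that aminates UTP to CTP and is the form linked to lymphocyte proliferation. It stood at 33.6, 40.0 and 48.5 CPM in sensitive cells and at 87.7, 68.9 and 66.5 CPM in resistant cells, with no overlap. CTPS1 rose 1.83-fold (log2 fold change 0.87 ± 0.18 SE, edgeR adjusted p = 0.00750). Over the 17 alternatives its log2 fold change was between 0.73 and 1.07. CTPS2, its X-linked relative (X, 16588003 to 16712936), measured 29.2, 35.0 and 40.3 CPM against 23.4, 25.7 and 28.1 CPM. The CTPS2 groups did not overlap either, but the difference did not pass (−0.43 ± 0.17, edgeR adjusted p = 0.0933), except with the replicate block (−0.43, 0.0376) and without both libraries numbered 3 (−0.40, 0.0272).

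Within each library the balance between the 2 genes can be read without any scaling between libraries. The log2 ratio of CTPS1 to CTPS2 counts was 0.21, 0.19 and 0.26 in the sensitive libraries. In the resistant libraries it was 1.90, 1.42 and 1.24, higher than in any sensitive library. The ratio was higher by 1.30 on the log2 scale, with p = 0.1 in the exact two-sided permutation test, the smallest that 3 against 3 libraries allow, and 0.25 after Benjamini-Hochberg adjustment over 5 gene pairs. The 2 genes are of different length, so the ratio of counts is not a ratio of molecules.

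**Figure D4:**
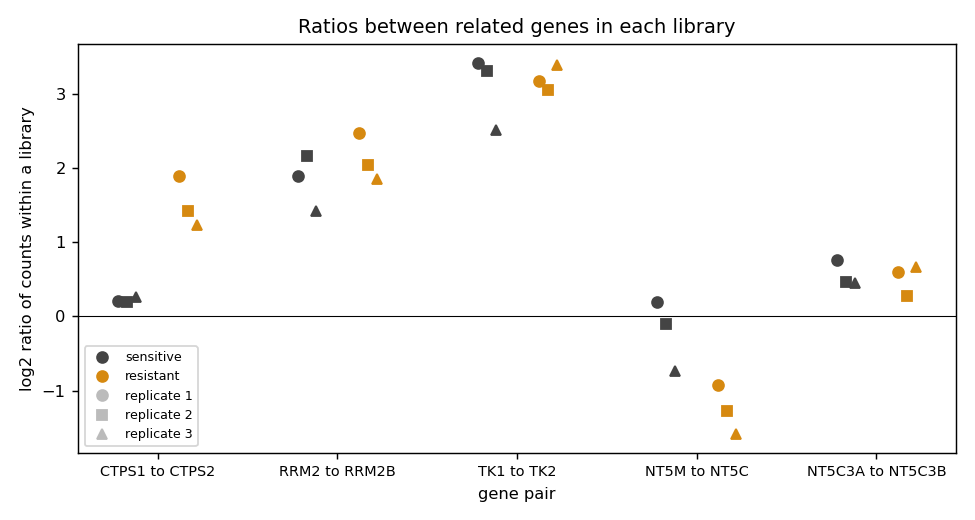
Log2 ratio of the counts of 2 related genes within each library (y axis) for 5 pairs (x axis), with sensitive libraries in grey, resistant in orange and a marker for each replicate number. CTPS1 to CTPS2 is higher and NT5M to NT5C lower in every resistant than in every sensitive library, and the other 3 pairs overlap.

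Of 5 kinases that act on nucleoside mono- and diphosphates, 2 fell and 3 did not pass. CMPK2, a mitochondrial UMP-CMP kinase that is also an interferon-induced gene, lies on chromosome 2 (6840570 to 6866635). It stood at 32.3, 21.4 and 55.1 CPM in sensitive cells and at 14.2, 16.2 and 21.8 CPM in resistant cells. Sensitive replicate 2 and resistant replicate 3 overlapped, and the sensitive libraries spread widely. CMPK2 fell 2.09-fold (−1.06 ± 0.32 SE, edgeR adjusted p = 0.0361). The call was lost without sensitive replicate 1 (0.0682) or 3 (0.124, log2 fold change −0.63), without resistant replicate 1 (0.106) or 2 (0.134), with library totals alone (0.0505), with limma-voom (0.0579) and with length and GC offsets (0.0532). Leaving out sensitive replicate 3, the highest library, changed its fold the most.

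NME3, NME2, NME4 and NME6 belong to the nucleoside diphosphate kinase family, which adds the last phosphate to make triphosphates. NME3, on chromosome 16 (1770286 to 1771730), stood at 14.6, 17.6 and 13.6 CPM in sensitive cells and at 6.20, 8.85 and 9.07 CPM in resistant cells. The groups did not overlap, and NME3 fell 1.90-fold (−0.92 ± 0.21 SE, edgeR adjusted p = 0.0113). NME4, the mitochondrial form, lies on the same chromosome (396725 to 410367) and went the other way without passing, from 46.0 ± 5.51 to 62.3 ± 6.46 CPM, with no overlap (0.44 ± 0.16, adjusted p = 0.0701). It passed with the replicate block (0.44, 0.0231), with upper quartile factors (0.52, 0.0258), with library totals alone (0.61, 0.00984), with at least 50 counts in 3 libraries (0.48, 0.0318) and without both libraries numbered 3 (0.49, 0.00528). DECR2 on the same strand shares 15.6% of the NME4 exon bases, so the NME4 level is uncertain. NME6 measured 28.6 ± 3.57 and 30.0 ± 2.83 CPM. NME2 had 1.88 ± 0.450 and 2.29 ± 0.250 CPM, but 22.9% of its exon bases are shared with the readthrough gene NME1-NME2, which had 0 counts in all libraries, so the NME2 level is uncertain.

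The 3 ribonucleotide reductase genes had negative log2 fold changes, and 1 passed. Ribonucleotide reductase makes all deoxyribonucleotides. RRM1 encodes its large subunit, RRM2 the small subunit of dividing cells and RRM2B the p53-inducible small subunit. RRM2B, on chromosome 8 (102204502 to 102239118), stood at 65.9, 61.5 and 70.4 CPM in sensitive cells and at 33.1, 37.9 and 53.4 CPM in resistant cells. All resistant values were below all sensitive ones, with resistant replicate 3 nearest to them. RRM2B fell 1.59-fold (−0.67 ± 0.19 SE, edgeR adjusted p = 0.0304). It did not pass without sensitive replicate 1 (0.0896), 2 (0.0651) or 3 (0.0923), without resistant replicate 1 (0.0981) or 2 (0.157), with library totals alone (0.0680) or with length and GC offsets (0.116).

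RRM1 stood at 336, 352 and 401 CPM in sensitive cells and at 224, 256 and 378 CPM in resistant cells. Resistant replicate 3 lay inside the sensitive range and the other 2 below it. The difference did not pass (−0.35 ± 0.22, edgeR adjusted p = 0.292), but did without resistant replicate 3 (−0.62, 0.0234) and without both libraries numbered 3 (−0.53, 0.00347). RRM2 measured 237 ± 45.1 and 178 ± 19.4 CPM (−0.41 ± 0.19, adjusted p = 0.146). It passed without both libraries numbered 3 (−0.63, 8.93e-04). AC007240.1, on the same strand but not among the counted IDs, shares 20.2% of the RRM2 exon bases. The log2 ratio of RRM2 to RRM2B counts was 1.83 ± 0.381 in sensitive and 2.13 ± 0.315 in resistant libraries, with overlap (exact two-sided permutation p = 0.5, adjusted 0.833).

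Among the 5 genes of thymidylate supply, 3 fell and 2 did not pass, and TYMS differed in sign from the rest. DCTD deaminates dCMP to dUMP, the substrate of thymidylate synthase, and also acts on cytidine analogues. DCTD, on chromosome 4 (182890060 to 182917936), stood at 87.3, 94.9 and 104 CPM in sensitive cells and at 52.6, 63.2 and 62.2 CPM in resistant cells, with no overlap. It fell 1.61-fold (−0.69 ± 0.15 SE, edgeR adjusted p = 0.00883).

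The thymidine kinases TK1, the cytosolic enzyme of dividing cells, and TK2, the mitochondrial one, both fell. TK1, on chromosome 17 (78174075 to 78187233), stood at 129, 153 and 113 CPM in sensitive cells and at 75.0, 87.5 and 89.5 CPM in resistant cells. It fell 1.57-fold (−0.65 ± 0.17 SE, edgeR adjusted p = 0.0185). TK2, on chromosome 16 (66508003 to 66552544), measured 12.0, 15.4 and 19.8 CPM against 8.22, 10.4 and 8.52 CPM. It fell 1.74-fold (−0.80 ± 0.22 SE, adjusted p = 0.0275). Neither gene's groups overlapped. The TK1 call was lost without sensitive replicate 1 (0.0607) or 2 (0.0870), without resistant replicate 1 (0.0661) or 2 (0.0854) and with library totals alone (0.0609). The TK2 call was lost without sensitive replicate 2 (0.0696) or 3 (0.0727), without resistant replicate 1 (0.0816) or 2 (0.0627) and with library totals alone (0.0522). The log2 ratio of TK1 to TK2 was 3.09 ± 0.498 and 3.21 ± 0.164, with overlap (exact two-sided permutation p = 0.9, adjusted 0.9).

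TYMS, which methylates dUMP to dTMP, stood at 9.83, 11.9 and 15.8 CPM in sensitive cells and at 24.0, 18.7 and 14.005 CPM in resistant cells. Resistant replicate 3 lay below the highest sensitive library, and TYMS did not pass (0.60 ± 0.25, edgeR adjusted p = 0.111). It passed without resistant replicate 3 (0.75, 0.0323), without both libraries numbered 3 (0.96, 1.92e-04) and with library totals alone (0.79, 0.0369). ENOSF1, on the opposite strand, covers 39.1% of the TYMS exon bases and measured 70.5 ± 8.11 and 78.7 ± 9.23 CPM, above TYMS itself, so that reads of the 2 genes cannot be told apart if strand was not used in the counting. DUT, which removes dUTP and supplies dUMP, measured 79.1, 79.5 and 103 CPM against 51.0, 60.0 and 86.7 CPM. It did not pass (−0.40 ± 0.21, adjusted p = 0.204), with resistant replicate 3 inside the sensitive range. DUT passed with the replicate block (−0.43, 0.0286), without resistant replicate 3 (−0.67, 0.0176) and without both libraries numbered 3 (−0.53, 0.00189).

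**Figure D5:**
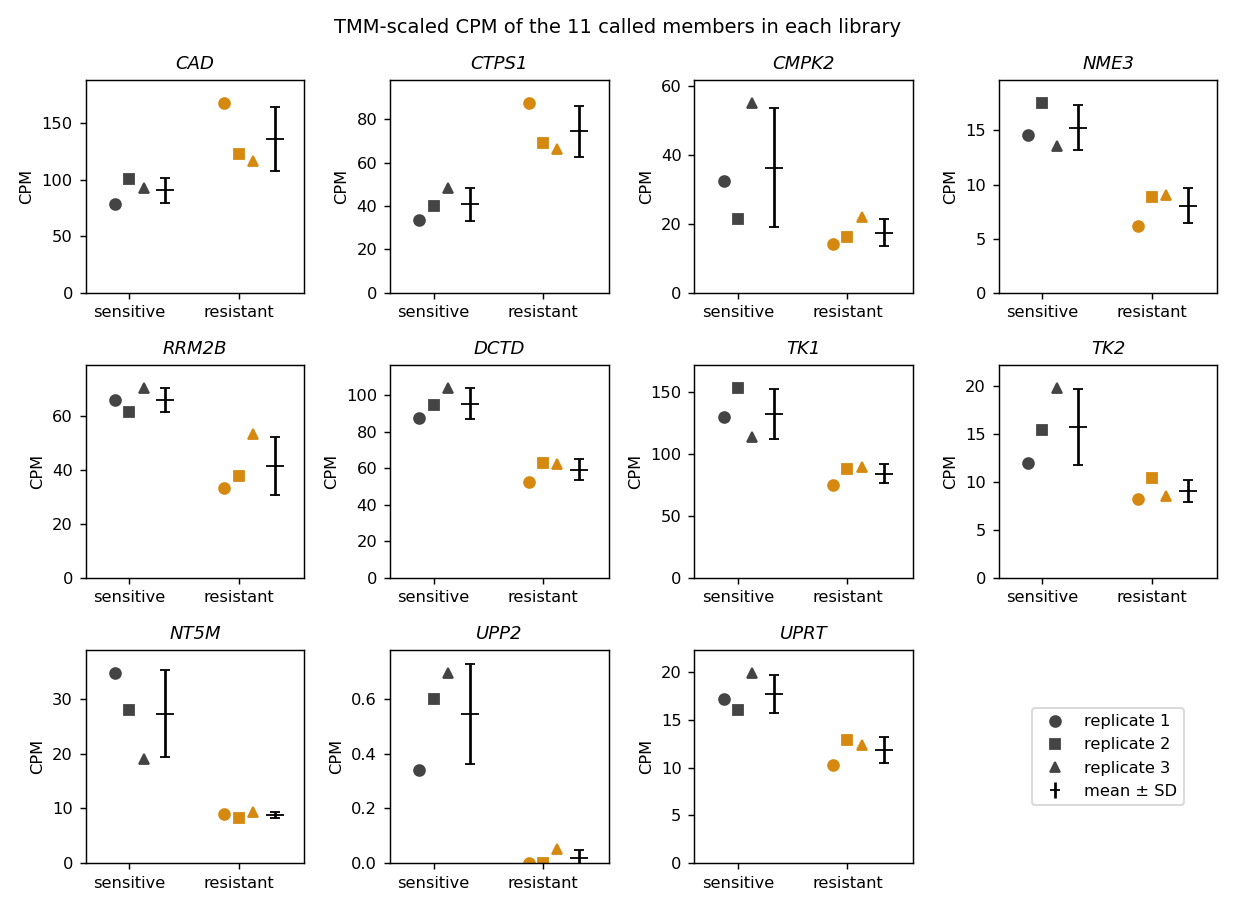
TMM-scaled CPM (y axis from 0, own scale for each gene) of the 11 called members in each library, with grey for sensitive, orange for resistant, a marker for each replicate number and mean ± SD beside the points. CAD and CTPS1 are higher in the resistant libraries, and of the 9 lower genes only CMPK2 has overlapping groups.

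None of the 3 genes that clean or hydrolyse the nucleotide pool passed, and none had an unadjusted p below 0.05 in edgeR, while without sensitive replicate 3 (adjusted p = 0.0348) and without both libraries numbered 3 (0.00581) DCTPP1 was higher. SAMHD1, which degrades deoxyribonucleoside triphosphates, stood at 8.04, 13.05 and 11.2 CPM in sensitive cells and at 11.5, 13.3 and 13.9 CPM in resistant cells. The groups overlapped (0.26 ± 0.21, edgeR adjusted p = 0.428). DCTPP1, a dCTP pyrophosphatase that also acts on modified cytidine nucleotides, measured 13.1, 12.6 and 23.2 CPM against 18.8, 19.6 and 22.5 CPM, with sensitive replicate 3 above every resistant library. ZNF771 on the opposite strand shares 42.1% of the DCTPP1 exon bases. NUDT1, which removes oxidised nucleotides, measured 21.3 ± 3.97 and 22.7 ± 5.06 CPM.

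Of the 6 nucleotidases, which remove phosphate from nucleoside monophosphates, 1 fell and 5 did not pass. NT5M, the mitochondrial deoxyribonucleotidase, showed the largest change of the 32 members after UPP2. It lies on chromosome 17 (17303335 to 17347663) behind the CpG-rich sequence shown above. NT5M stood at 34.9, 28.1 and 19.0 CPM in sensitive cells and at 8.89, 8.17 and 9.36 CPM in resistant cells. The resistant libraries lay close together, while the sensitive ones spread, and the lowest sensitive library was still above the highest resistant one. NT5M fell 3.10-fold (−1.63 ± 0.23 SE, edgeR adjusted p = 8.25e-04). Over the 17 alternatives its log2 fold change was between −1.90 and −1.44.

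NT5C, the cytosolic relative of NT5M, stood at 30.5, 30.1 and 31.7 CPM in sensitive cells and at 16.9, 19.9 and 28.2 CPM in resistant cells. Its groups did not overlap, but resistant replicate 3 came close to the sensitive values. NT5C did not pass (−0.51 ± 0.20, edgeR adjusted p = 0.0961), but did with the replicate block (−0.54, 0.0326), without resistant replicate 3 (−0.76, 0.00635) and without both libraries numbered 3 (−0.74, 4.00e-04). The log2 ratio of NT5M to NT5C counts was 0.19, −0.10 and −0.74 in sensitive cells and −0.93, −1.28 and −1.59 in resistant cells. It was lower by 1.05 on the log2 scale, without overlap (difference −1.05, exact two-sided permutation p = 0.1, the smallest possible, adjusted 0.25). AC022211.4 on the opposite strand shares 58.1% of the NT5C exon bases. The NT5C level and its ratio to NT5M are therefore uncertain if strand was not used in the counting.

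NT5C3A, which prefers pyrimidine nucleotides and is best known from red cells, measured 62.6 ± 4.66 and 49.0 ± 10.7 CPM (−0.35 ± 0.18, edgeR adjusted p = 0.184). Without resistant replicate 3 it was lower (−0.57, 0.0161), and likewise without both libraries numbered 3 (−0.51, 0.00206). Its relative NT5C3B measured 42.6 ± 5.52 and 34.2 ± 5.45 CPM (adjusted p = 0.226). The ratio of the 2 genes overlapped between groups (exact permutation p = 0.9). NT5C2, the cytosolic purine nucleotidase, measured 38.3 ± 1.84 and 39.5 ± 4.37 CPM. CNNM2 on the opposite strand shares 36.7% of the NT5C2 exon bases. NT5E, the cell surface enzyme CD73, had 34 counts in all sensitive and 57 in all resistant libraries. The ratio of resistant to sensitive was 1.64 (exact 95% interval 1.05 to 2.59, counting error only, edgeR adjusted p = 0.455).

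Of 4 genes of base and nucleoside salvage, 2 fell and 2 did not pass. UPP2, a uridine phosphorylase gene of liver and kidney, lies on chromosome 2 (157876702 to 158136154). It had 0.342, 0.601 and 0.696 CPM in the sensitive libraries, 60 counts in all, and 0, 0 and 0.0525 CPM in the resistant libraries, where the only 2 counts were in resistant replicate 3. The ratio of sensitive to resistant was 30.7, with an exact 95% interval from 8.13 to 259 that covers counting error only (edgeR adjusted p = 0.00527). UPP2 passed the filter on low counts only through the sensitive libraries, so that its call follows in part from the filter. At this depth its level was low in both groups, and it was not tested when at least 50 counts in 3 libraries were required.

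UPRT, related to uracil phosphoribosyltransferase, lies on the X chromosome (75274085 to 75304600) and stood at 17.2, 16.1 and 19.96 CPM in sensitive cells and at 10.3, 12.9 and 12.4 CPM in resistant cells. The groups did not overlap, and UPRT fell 1.497-fold (−0.58 ± 0.18 SE, edgeR adjusted p = 0.0388). The call was lost without sensitive replicate 1 (0.101), 2 (0.0711) or 3 (0.0942), without resistant replicate 1 (0.122) or 2 (0.111), with upper quartile factors (0.0561), with library totals alone (0.110) and with length and GC offsets (0.121). UPP1, the widely expressed uridine phosphorylase, measured 4.47 ± 1.49 and 5.70 ± 0.477 CPM. TYMP, thymidine phosphorylase, measured 2.37 ± 0.125 and 2.12 ± 0.267 CPM. ODF3B and SCO2 on the same strand share 10.5% and 10.2% of the TYMP exon bases. DPYD, which starts pyrimidine breakdown, had 28 counts in all sensitive and 35 in all resistant libraries, a ratio of resistant to sensitive of 1.22 with an exact 95% interval from 0.723 to 2.09, which covers counting error only.

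The 31 other genes of pyrimidine uptake, phosphorylation, breakdown and the linked folate cycle were taken from a fixed list. Counts sufficed for 24 of them, of which 3 were called higher and 4 lower, with a median log2 fold change of −0.00. These calls were 29.2% of the 24, against 23.0% of all genes tested. The kinase UCK2, which starts phosphorylation of uridine and cytidine, rose (0.59 ± 0.17, edgeR adjusted p = 0.0310), with 82.0, 79.4 and 77.5 CPM in the resistant libraries against 43.8, 49.7 and 64.8 CPM. UCKL1 and MTHFD1 also rose (0.66 and 0.62). NME7 fell (−1.02 ± 0.22, adjusted p = 0.00829) as did SLC25A36, a mitochondrial pyrimidine nucleotide carrier (−0.47), SHMT2 (−0.91) and MTHFD2 (−1.33). MTHFD1 and SLC25A36 were named after their values were seen. The list had 0 higher calls when sensitive replicate 1, sensitive replicate 2 or else resistant replicate 2 was left out, 1 without resistant replicate 1, and 1 lower call without resistant replicate 2. The steps between the members, CMPK1 (−0.14, adjusted p = 0.631), DTYMK (0.09, 0.791) and NME1 (0.24, 0.680), did not pass, and neither did UCK1 (−0.05, 0.837), DCK (−0.51, 0.109) and SLC29A1 (0.04, 0.874). CDA, cytidine deaminase, had 2 counts, both in sensitive replicate 1.

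Purine genes gave a share of calls like that of the members, with 4 higher and 5 lower of 26 tested and a median of 0.00. The share was 34.6%, against 23.0% of all genes tested. The guanine deaminase gene GDA fell (−2.63 ± 0.15, edgeR adjusted p = 3.28e-06), the mitochondrial adenylate kinase family gene AK4 fell (−1.01), and AMPD2, an AMP deaminase gene, rose (0.91). The purine phosphorylase gene PNP fell (−0.91). Of these purine counts, the higher one was 1 when sensitive replicate 1, sensitive replicate 2 or else resistant replicate 2 was left out, and 2 without resistant replicate 1, and the lower one was 3 without resistant replicate 2.

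RRM1, RRM2, TK1, TYMS and DUT are known as genes expressed around S phase, and 36 other S-phase genes were read beside them. Of these 36, POLD3 alone passed in edgeR (−0.55 ± 0.16, adjusted p = 0.0331) and 0 were higher. The calls were 2.78% of this list, against 23.0% of all genes tested. At an unadjusted p below 0.05 in edgeR, 1 was higher and 3 lower. DESeq2 called 1 higher and 1 lower. Without sensitive replicate 1 or 2 or resistant replicate 1 or 2, 0 were lower. Their median log2 fold change was −0.13, and their summed level was 5239, 5092 and 5798 CPM in sensitive cells and 4359, 4821 and 5968 CPM in resistant cells. Resistant replicate 3 was thus the highest of all 6 and the other resistant libraries were the lowest. Without resistant replicate 3, 8 S-phase genes were lower and 1 higher, where 31.3% of all genes were called. Without both libraries numbered 3, 14 were lower and 2 higher, where 44.1% of all genes were called. The part of the S-phase level in the values of RRM1, RRM2, TK1, TYMS and DUT was not tested.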

How the data were processed

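Deposited were raw counts, 1 whole number per Ensembl ID and library, with different totals per library. Per the labels' protocols, total RNA was depleted of ribosomal RNA, made into stranded libraries and sequenced in pairs. Reads were handled with Trimmomatic 0.39, HISAT2 2.2.1 and featureCounts (Subread 2.0.3 is also listed) against GRCh38, per the submitters' processing notes. Not given in the sources used here are the annotation release, the strand setting and the treatment of reads over 2 genes, so overlapping genes are uncertain. Positions and exon lengths are from GENCODE 29 (GRCh38).

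Genes were filtered with filterByExpr, scaled with TMM factors and tested with edgeR 4.0.16 (robust quasi-likelihood, two-sided, R 4.3.3), with adjustment over all genes. The SE is the log2 fold change divided by the root of F. CPM use TMM-scaled totals. Every member was named, and from the fixed lists the called genes with the smallest adjusted p (up to 4) and 8 partners. The members and lists were chosen with earlier results of these data known. DESeq2 1.42.0 and limma 3.58.1 were alternatives. Leaving out both libraries numbered 3, and offsets for the length and GC content of the longest transcript, were alternatives chosen after seeing the data. The offsets left part of the rank correlation of library deviations with length (−0.049 before and −0.045 after in sensitive replicate 1, −0.083 and −0.043 in sensitive replicate 3). That with GC shrank in sensitive replicate 3 (−0.15 to 0.048) and grew in size in resistant replicate 3 (−0.011 to −0.050).

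Same-numbered libraries deviated together from their group means (correlations over genes of 0.27, 0.10 and 0.36 for numbers 1, 2 and 3), all above 0.1. Resistant replicate 1 correlated more with sensitive replicate 2 (0.32) than with its own number. With sensitive replicate 3 it gave −0.38, and resistant replicate 3 gave −0.22 and −0.32 with sensitive replicates 1 and 2. The correlations mainly set the libraries numbered 3 apart and cannot show that numbers 1 and 2 are matched. The labels give no pairing, so the replicate block is an alternative only.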

Additional observations from a re-analysis of the deposited data

How the results depend on the processing

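With library totals alone 5 members were higher and 4 lower, with limma-voom 1 was higher, and with length and GC offsets 1. Without both libraries numbered 3, where 44.1% of all genes were called, 6 members were higher and 15 lower. With the replicate block, for which no pairing is established, 4 members were higher. The members it added were UMPS, NME4, CTPS2, DUT and NT5C, and it ended no call of a member. Leaving out 1 library at a time gave 1 to 3 members higher and 3 to 13 lower, where 12.6% to 31.3% of all genes were called. Of the partner genes, 0 to 4 were higher and 1 to 5 lower when 1 library was left out, 6 and 7 without both libraries numbered 3, and 1 was higher with the offsets. Purine genes ranged from 1 to 6 higher and from 3 to 6 lower over the left-out libraries. S-phase genes ranged from 0 to 1 higher and from 0 to 8 lower. They had 1 higher with upper quartile factors, library totals alone, DESeq2 or the replicate block, and 2 higher without both libraries numbered 3. S-phase genes lower were 0 with library totals alone or the offsets, 2 with no filter, 3 with the replicate block and 14 without both libraries numbered 3. Signs turned only for differences that had not passed. TYMP went from −0.16 to 0.0075 with library totals alone. DPYD, which had few counts, went from 0.28 to −0.19 without both libraries numbered 3. Over the left-out libraries the log2 fold change ran from −0.041 to 0.15 for NME6, from −0.083 to 0.26 for NUDT1 and from −0.021 to 0.11 for NT5C2. The TK1 to TK2 ratio difference ran from −0.16 to 0.30 and that of NT5C3A to NT5C3B from −0.13 to 0.066. The causes of these changes were not tested. Depth limits NT5E, UPP2 and DPYD, through their low counts.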
